A study of Homo sapiens with 6 samples.

Results

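The cytosolic ribosomal protein genes encode the protein components of the ribosome outside mitochondria. They were taken by symbol: RPL or RPS followed by a number with the suffixes A, L or X and the paralogue endings, plus RPLP0, RPLP1, RPLP2 and RPSA, without the RPS6K kinases and without pseudogenes. This gave 84 of the 26372 genes in the table, 52 of the large subunit and 32 of the small. Of these, 7 are paralogue copies (RPL3L, RPL7L1, RPL10L, RPL22L1, RPL26L1, RPL39L and RPS27L) and 77 are here called main copies. FAU and GNB2L1 (an older symbol of RACK1) also encode ribosomal proteins but do not match the symbol rule, and are given separately.

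RNA was measured in BE(2)-M17 cells, a human neuroblastoma line, in 3 control libraries and 3 libraries with knockdown of GOMAFU, a long non-coding RNA whose gene symbol in the table is MIAT. Both groups carry the replicate numbers 2, 3 and 4. Cells were transfected by lipofection (100 pmol of small RNA), and polyadenylated RNA was sequenced as 150-base paired reads with 100M reads aimed at for each library. The sources used here do not state what the control cells received, which sequence was used against GOMAFU or whether replicates were separate cultures, so p-values measure only the spread between these libraries, which may be technical.

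Each ribosome carries nearly every ribosomal protein in a single copy, so cells make these proteins in matched amounts. Most of their mRNAs begin with a cytosine followed by an unbroken run of pyrimidines, the terminal oligopyrimidine (TOP) tract, through which mTORC1 and the RNA-binding protein LARP1 control their translation. In neuroblastoma the oncogene MYCN is known for raising ribosome synthesis. RPL5 and RPL11 join the large subunit together with 5S RNA, and bind MDM2 when ribosome assembly is disturbed.

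Levels are in FPKM, fragments divided by transcript length and by a measure of library size. MIAT had 5.38, 5.96 and 8.57 FPKM across control replicates 2, 3 and 4, against 1.27, 1.32 and 3.21 FPKM across knockdown replicates 2, 3 and 4. The groups did not overlap, and knockdown averaged 29.2% of control (exact permutation test, two-sided, p = 0.1, the smallest that 3 against 3 allows). Summed FPKM per library ran from 579365 to 637153, and the step between low values gave relative depths of 0.972 to 1.36. Knockdown replicate 4 stood apart, correlating across genes at 0.940 to 0.956 with the other libraries, which correlated with one another at 0.984 to 0.997. The summed FPKM of 25 interferon response genes was 57.8 to 65.6 in the controls and 560, 97.5 and 12080 in knockdown replicates 2, 3 and 4. Neuroblastoma markers summed to 4455 to 5303 FPKM, and 9 of 11 had a mean of at least 1 FPKM. Fibroblast and mesenchymal markers summed to 162 to 191 FPKM (4 of 9 under 1 FPKM, 1 of them at 0), immune markers to 1.48 to 3.38 (7 of 8 under 1 FPKM, 2 at 0) and Schwann and glial markers to 1.47 to 2.44 (all 6 under 1 FPKM).

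Ribosomal protein transcripts were among the most abundant of these cells. By control mean, 45 of the 50 most abundant genes of the table were ribosomal protein genes, as were 64 of the first 100 and 73 of the first 200. Together they made up 32.7%, 31.9% and 34.7% of all summed FPKM in control replicates 2, 3 and 4, and 30.4%, 32.03% and 32.01% in knockdown replicates 2, 3 and 4. The group means were 33.1% ± 1.43 and 31.5% ± 0.934 (SD, n = 3 each). The difference was similar to the spread between controls, and knockdown replicates 3 and 4 lay above control replicate 3. FPKM is scaled to library size. Where that is the mapped total, values of this size also enter the scale on which every other gene is read. In bulk RNA a lower level in every cell cannot be told apart from fewer cells carrying the transcript.

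Of the 84 genes, 82 passed the filter of a mean of at least 1 FPKM, and 64 of these had a control mean of at least 1000 FPKM, 12 between 100 and 1000, and 6 under 100. RPS27, a zinc-finger protein of the small subunit, had the highest level, at 13490, 13247 and 14952 FPKM in controls and 12127, 13464 and 14710 FPKM in the knockdown libraries. RPS18 and RPS2 followed in the small subunit, with control means of 6107 ± 266 and 5827 ± 297 FPKM (SD, n = 3). RPL37A led the large subunit at 7465 ± 345 FPKM, before RPL41, a peptide encoded by only 75 bases, at 5266 ± 341 and the stalk protein RPLP1 at 5112 ± 478 FPKM (SD, n = 3). RPL41 and RPLP1 differed by less than these SDs.

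The lowest levels belonged mostly to paralogues. In the small subunit these were RPS27L at 28.5 ± 1.49, then RPS23 at 577 ± 26.3 and RPS26 at 695 ± 31.7 FPKM in the controls. In the large subunit RPL26L1 (57.0 ± 5.02) and RPL39L (57.0 ± 7.05) had the same mean, and RPL21 stood at only 4.17 ± 0.350 FPKM (SD, n = 3). RPL21 is a main copy with 66 pseudogenes by symbol in GENCODE release 29, and reads of near-identical copies cannot be assigned with certainty, so its value is uncertain. Some uncertainty of this kind touches most of the family: 77 of the 82 genes have at least 1 pseudogene by symbol, up to 91 for RPL23A. RPL23A stood at 1055 ± 66.6 FPKM in controls. Across the 77 main copies, the number of pseudogenes and the control level correlated at a Spearman's rho of -0.15. The part of pseudogene copies in the low value of RPL21 was not tested. RPL10L, a copy known from testis, was listed at 0 in all 6 libraries, and RPL3L, known from striated muscle, was listed at 0.044 FPKM in control replicate 2 and at 0 in the others.

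**Figure D1:**
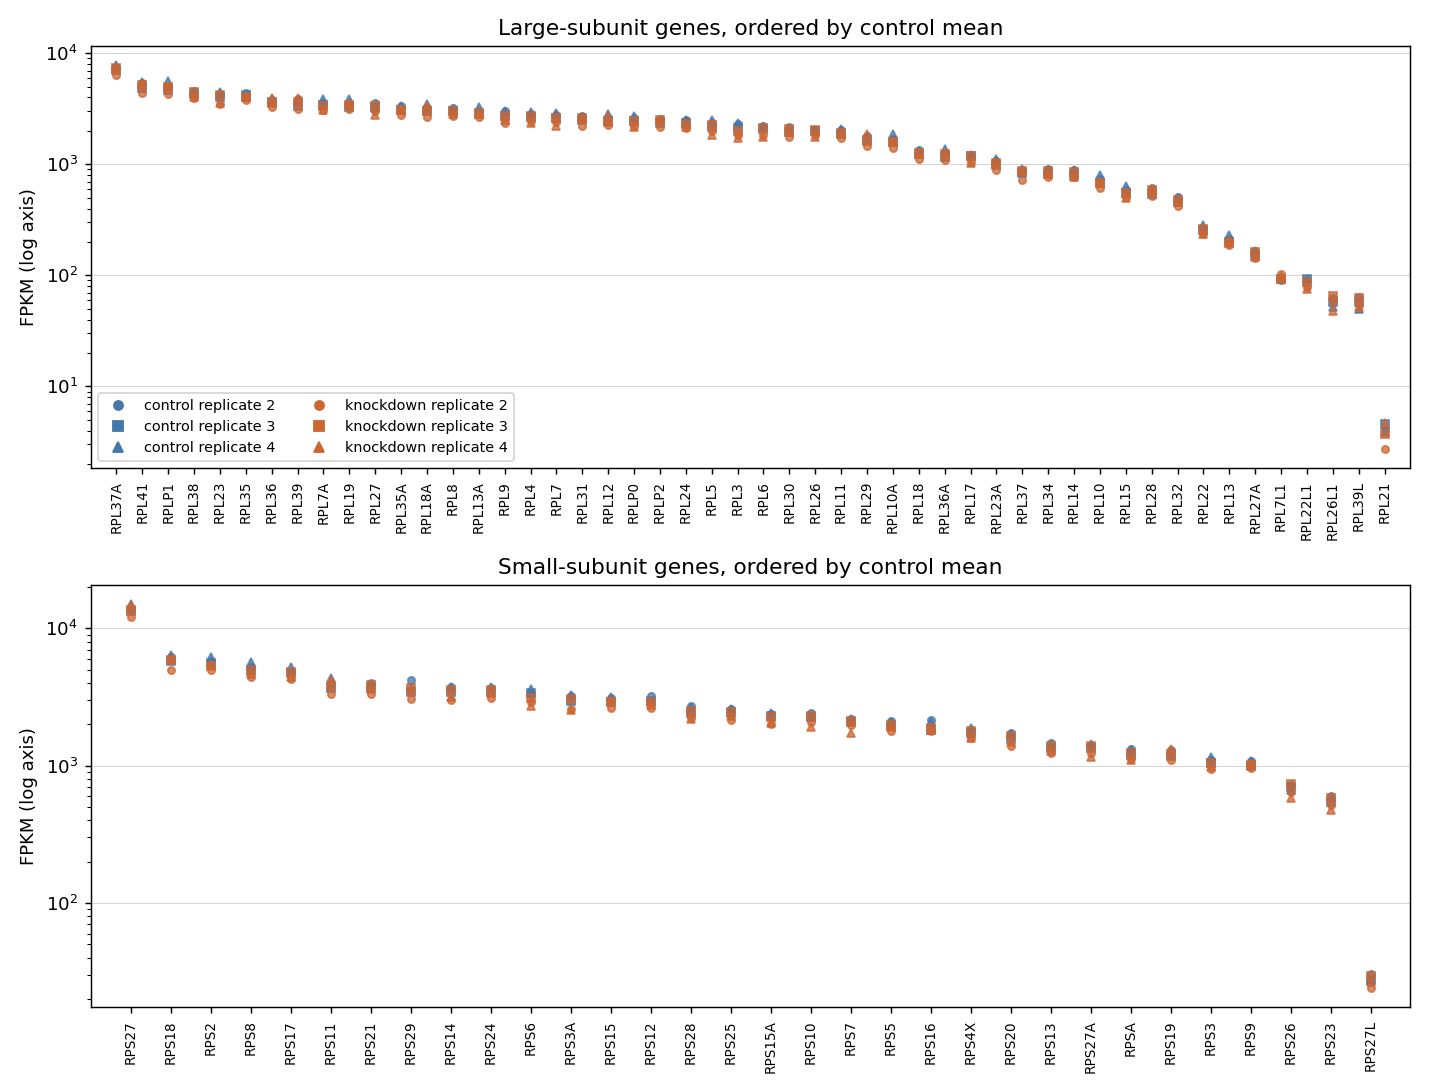
FPKM (log axis) of the 50 large-subunit and 32 small-subunit genes that passed the filter, ordered by control mean; each point is 1 library, blue for control and orange for knockdown, with the shape giving the replicate number. Most genes lie above 1000 FPKM, the paralogues and RPL21 form the low end, and within a gene the 6 libraries lie close together.

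The start sites show a feature that most of these genes share. RefSeq promoter entries (GRCh38.p14) were found for 67 of the 84 genes. A run of at least 5 C or T bases covered the annotated start in 50 of 67 genes (74.6%), against 11.9% of all 27305 genes with an entry and 12.4% of the 9171 such genes that passed the filter. For genes with several starts, the start with the longest run was used. With at least 7 bases the shares were 71.6% of ribosomal protein genes and 7.40% of all genes. Among main copies 49 of 62 had the run (79.0%), and among paralogues 1 of 5, RPL22L1. The sequences below run from 10 bases before the start to 20 bases from it, on the gene's strand, with the C/T run in capitals. They are those of RPL3 and RPS6, which had the smallest p, and of RPL7A, which had the longest run. RPL22, RPS27 and RPL26 are beside their paralogues, and RPL7L1 stands alone, since RPL7 had no entry. RPL10 and RPL10L also had entries and are not shown.
RPL3: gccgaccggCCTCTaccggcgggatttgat
RPS6: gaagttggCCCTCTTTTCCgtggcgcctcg
RPL7A: aTTCCCTTTCCTTTCTCTCTCCTCCCgccg
RPL22: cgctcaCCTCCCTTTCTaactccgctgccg
RPL22L1: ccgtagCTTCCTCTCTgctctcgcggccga
RPS27: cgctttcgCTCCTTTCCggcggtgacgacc
RPS27L: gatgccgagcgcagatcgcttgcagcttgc
RPL26: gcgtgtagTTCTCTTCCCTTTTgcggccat
RPL26L1: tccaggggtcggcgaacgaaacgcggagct
RPL7L1: gtgcggcgccgtagctaggagcggacgcca

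These windows lie at chr22:39319604-39319633 (minus strand) for RPL3, chr9:19380217-19380246 (minus) for RPS6 and chr9:133348208-133348237 (plus) for RPL7A. The window of RPL22 is at chr1:6199576-6199605 (minus) and that of RPL22L1 at chr3:170870176-170870205 (minus). RPS27 is at chr1:153990752-153990781 (plus) and RPS27L at chr15:63157458-63157487 (minus). RPL26 is at chr17:8383174-8383203 (minus), RPL26L1 at chr5:172958719-172958748 (plus) and RPL7L1 at chr6:42879606-42879635 (plus). The run is 25 bases long in RPL7A, 11 in RPS6 and only 5 in RPL3, and the windows of RPS27L, RPL26L1 and RPL7L1 have none over the start. Its length counts bases on both sides of the annotated start, so it is not the length of the tract in the mRNA. RPL22L1 has a run of 10 bases, close to the 11 of RPL22.

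Other short motifs were searched on both strands of the whole 300-base promoter entries. CCGGAA, whose reverse strand TTCCGG can overlap a C/T run, was present in 58.2% of ribosomal protein genes, 20.1% of all genes and 35.8% of genes that passed the filter. CACGTG was present in 7.46%, against 8.78% of all genes and 13.1% of those that passed the filter. TATAAA was present in 10.4%, between the 14.0% of all genes and the 7.89% of those that passed the filter. Main copies with the run at the start had a median difference between groups of -0.12 on the log2 scale (49 genes), and those without it -0.14 (13 genes). The length of the run, bases before the start included, correlated with the difference at a Spearman's rho of 0.32 across these 62 genes, which share the same libraries.

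Nearly all ribosomal protein transcripts had lower mean values after GOMAFU knockdown, and none passed the test. Of 82 genes, 81 had a fitted difference below 0 on the log2(FPKM + 1) scale (55 after quantile normalization), where 53.3% of all 12164 genes tested lay below 0. The exception was RPL7L1. The median was -0.13, from -0.29 (RPL3) to 0.058 (RPL7L1), beside -0.0081 for all genes. By limma with Benjamini-Hochberg adjustment over all genes, 0 of 82 were called in either direction at an adjusted p under 0.05, and so were 0% of all genes. Before adjustment 2 genes had a p under 0.05, RPL3 and RPS6, both lower. Over all genes 1.19% were lower at that level and 0.970% were higher. All 3 knockdown values lay below all 3 controls for 11 of the 82 genes (13.4%), against 4.35% of all genes, and above them for 0, against 4.01%. Since these genes move together within a library, the counts are not separate observations.

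RPL3, a core protein of the large subunit near the peptidyl transferase centre, had the smallest p. It lies on chromosome 22 at 39312882 to 39320389 (minus strand) and stood at 2307, 2116 and 2366 FPKM in controls and at 1823, 1985 and 1741 FPKM in the knockdown libraries. All 3 knockdown values were below the lowest control, by the smallest margin in replicate 3. The log2 difference was -0.29 (SE 0.088; unadjusted p = 0.013, adjusted p = 0.9998, limma), and knockdown averaged 81.7% of control. RPL3 is the only member on chromosome 22, where the median over 291 tested genes was -0.14, while the medians of the other chromosomes ran from -0.022 to 0.0087. The share of that regional difference in the value of RPL3 was not tested. Leaving RPL3 out kept the family's median at -0.13.

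RPS6, the small-subunit protein phosphorylated by S6 kinase downstream of mTORC1, lies on chromosome 9 at 19375715 to 19380254 (minus strand). Its values were 3317, 3352 and 3582 FPKM in controls and 2900, 3115 and 2724 FPKM in the knockdown libraries. The groups did not overlap, and the lowest value was that of knockdown replicate 4. The log2 difference was -0.23 (SE 0.085; unadjusted p = 0.030, adjusted p = 0.9998, limma).

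RPL9, a large-subunit protein at the base of the stalk region, stood at 3000, 2745 and 3021 FPKM in controls and at 2367, 2711 and 2527 FPKM after knockdown. RPL15 stood at 587, 553 and 637 FPKM in controls and at 505, 552 and 501 FPKM after knockdown. RPL7 stood at 2760, 2601 and 2897 FPKM in controls and at 2403, 2594 and 2197 FPKM after knockdown. In all 3 genes knockdown replicate 3 lay just below control replicate 3, so the groups were separated by narrow margins. Their log2 differences were -0.21 (SE 0.088), -0.19 (SE 0.085) and -0.20 (SE 0.093), each with an adjusted p of 0.9998 by limma.

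RPS2, which lines the mRNA entry channel, stood at 5735, 5587 and 6159 FPKM in controls and at 4962, 5329 and 5384 FPKM after knockdown, without overlap. Its log2 difference was -0.16 (SE 0.083), and 0.028 under quantile normalization. RPS3A, after RPL3 and RPS6 the farthest below the family's median, stood at 3207, 2947 and 3276 FPKM and at 2594, 3062 and 2523 FPKM, and its knockdown replicate 3 exceeded control replicate 3. The other genes without overlap, named after their values were seen, were RPL7A, RPS15A, RPL24, RPS12 and RPL35A, with log2 differences of -0.18, -0.17, -0.15, -0.14 and -0.12. The median standard error over the 82 genes was 0.090, so most differences were smaller than 2 standard errors.

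**Figure D2:**
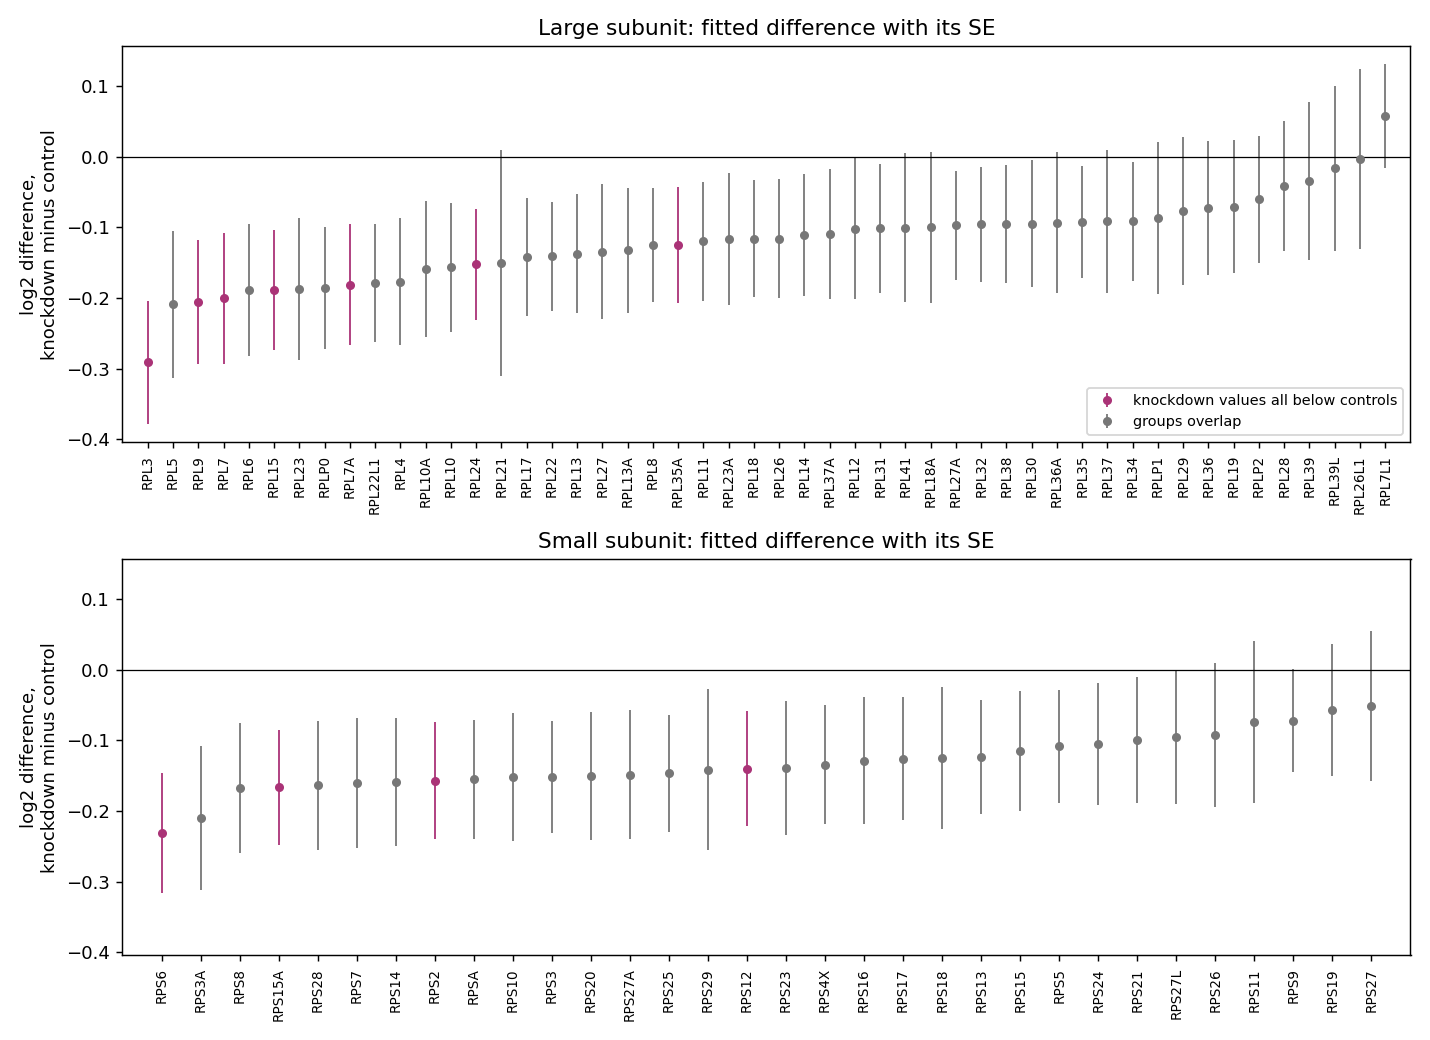
Fitted difference in log2(FPKM + 1), knockdown minus control, for each of the 82 genes tested, ordered within each subunit; bars are 1 standard error either way. Purple points mark the 11 genes whose 3 knockdown values all lay below the 3 controls, and with this scaling RPL7L1 is the only point above 0.

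The 3 knockdown libraries were not equally low. Relative to the control mean of each gene, the median over the 82 genes was 0.029, -0.076 and 0.039 in control replicates 2, 3 and 4, and -0.21, -0.042 and -0.13 in knockdown replicates 2, 3 and 4. Knockdown replicate 3 thus lay within the range of the controls, and above control replicate 3. Over all genes tested the same medians stayed between -0.014 and 0.0049 in the 6 libraries. In knockdown replicate 2, 79 of 82 genes lay below all 3 controls (25.9% of all genes) and 1 above (23.1%). In knockdown replicate 3 the counts were 19 below (21.2% of all genes) and 2 above (22.7%), close to the background for those below. In knockdown replicate 4, 49 lay below (35.9% of all genes) and 5 above (30.7%).

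The library with the highest interferon gene sum was not the one with the lowest ribosomal protein values: the sums were 560, 97.5 and 12080 FPKM beside medians of -0.21, -0.042 and -0.13 in knockdown replicates 2, 3 and 4. MIAT was at 1.27, 1.32 and 3.21 FPKM in the same libraries. The part of either in the result was not tested.

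The count of 11 genes without overlap depended on which libraries were compared. Leaving out control replicate 3, the lowest control, gave 58 genes (7.41% of all genes), and leaving out knockdown replicate 3 gave 48 (10.7%). Without knockdown replicate 4 it was 19 (11.7%), and without both libraries numbered 4, an alternative added once values were known, 21 (19.4%). It was 11 without control replicate 2 (7.53% of all genes), 13 without control replicate 4 (10.8%) and 11 without knockdown replicate 2 (6.52%). Under quantile normalization it was 4 (5.56% of all genes), with 55 of 82 genes below 0 (59.7% of all genes). The family's median in that setting was -0.026, beside -0.023 for all genes. With libraries rescaled to the same sum over the other genes the count without overlap was 18 (3.58%). Weighting libraries by their spread in limma gave 9 genes called higher and 13 lower over the whole table (0.0740% and 0.107%), of which 0 were ribosomal protein genes.

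**Figure D3:**
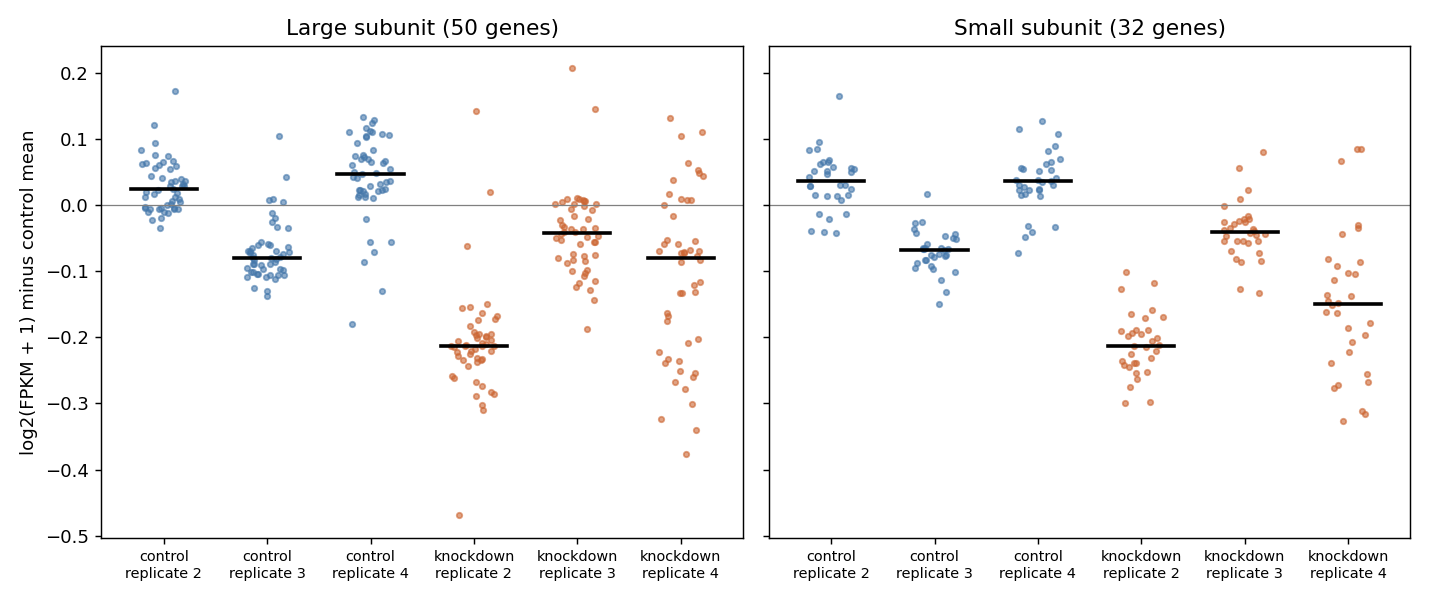
Value of each gene in each library relative to its control mean, on the log2(FPKM + 1) scale, for 50 large-subunit and 32 small-subunit genes; points are genes, with horizontal jitter, and black lines are medians. Knockdown replicate 2 is lowest in both subunits, knockdown replicate 3 lies between the controls, and knockdown replicate 4 has the widest scatter.

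Large and small subunit genes differed little. The median difference was -0.12 over 50 large-subunit genes (49 below 0, 7 lower without overlap). It was -0.14 over 32 small-subunit genes (all below 0, 4 lower without overlap). Over all genes, 53.3% lay below 0 and 4.35% were lower without overlap. The ratio of the large-subunit to the small-subunit FPKM sum was between 1.14 and 1.15 in all 6 libraries. The large-subunit median lay 0.070 above the small-subunit median in knockdown replicate 4, and in the other 5 libraries the gap was between -0.013 and 0.011. Without knockdown replicate 4 the gap between the subunits in the fitted difference went from 0.023 to -0.011, and its direction is thus set by that library.

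The values of these genes varied little between controls. The coefficient of variation over the 3 controls had a median of 5.11% for the 82 genes, and of 8.50% for 11984 genes with a control mean of at least 1 FPKM. These sets were not matched for level, and the median control level of the 82 genes was 2326 FPKM. The standard deviation of the 82 genes about their own median, in log2 units relative to the control mean, was 0.041, 0.041 and 0.058 in control replicates 2, 3 and 4. It was 0.071, 0.057 and 0.12 in knockdown replicates 2, 3 and 4. Each control is part of the mean it is measured against, which by itself lowers the control values. The measure can thus not be compared between the groups. The same measure was not taken over other genes. In knockdown replicate 4, RPL3 lay 0.25 below the family's median in that library and RPL21 0.26 above it.

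Groups by position in the ribosome and by disease all had medians below 0 and no called gene. The stalk that recruits elongation factors (RPLP0, RPLP1, RPLP2 and RPL12) had a median of -0.095. RPLP0, the stalk's base, had a control mean of 2591 ± 144 and a knockdown mean of 2279 ± 146 FPKM, with a log2 difference of -0.19 (SE 0.086; SD, n = 3). RPLP1 and RPLP2, the acidic stalk proteins, differed by -0.087 (SE 0.11) and -0.060 (SE 0.090), and by 0.032 and 0.071 under quantile normalization. In knockdown replicate 4 the median of the 4 stalk genes was 0.0075 relative to the controls, against -0.13 for the whole family in that library.

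Of the 5S particle proteins, RPL5 stood at 2347, 2157 and 2503 FPKM in controls and at 1986, 2242 and 1841 FPKM after knockdown, a log2 difference of -0.21 (SE 0.10). RPL11 stood at 2022, 1887 and 2086 FPKM in controls and at 1711, 1928 and 1880 FPKM after knockdown, a difference of -0.12 (SE 0.085). In both genes knockdown replicate 3 exceeded control replicate 3, so the groups overlapped.

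The proteins around the exit of the peptide tunnel (8 genes) had a median of -0.11 and those of mRNA entry and decoding (6 genes) -0.13, with RPS2 the 1 gene without overlap in either. Of 18 genes mutated in Diamond-Blackfan anaemia, an inherited failure of red cell production, all lay below 0 (53.3% of all genes). Their median was -0.12, and 2 were lower without overlap (4.35% of all genes), RPL15 and RPL35A. RPS19, the gene most often mutated in that disease, stood at 1310, 1182 and 1267 FPKM in controls and at 1092, 1218 and 1311 FPKM after knockdown. Its highest value was that of knockdown replicate 4, and its log2 difference was -0.057 (SE 0.094), or 0.033 under quantile normalization. RPSA, also known as a laminin receptor, differed by -0.16 (SE 0.085), and RPL10 by -0.16 (SE 0.091).

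Outside the symbol rule, GNB2L1 encodes the scaffold RACK1 on the head of the small subunit. It averaged 2622 ± 139 FPKM in controls and 2276 ± 130 after knockdown, without overlap (SD, n = 3; log2 difference -0.20, SE 0.084; unadjusted p = 0.045, adjusted p = 0.9998, limma). FAU, which encodes a ubiquitin-like protein fused to RPS30, differed by -0.094 (SE 0.081), or 0.011 under quantile normalization.

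By their median the paralogue copies lay nearer 0 than the main copies. Of the 5 that passed the filter, 4 lay below 0, with a median of -0.017 against -0.13 for the 77 main copies. The copies were not alike: RPL22L1 differed by -0.18 (SE 0.084) and RPS27L by -0.096 (SE 0.095). RPL39L, RPL26L1 and RPL7L1 differed by -0.017, -0.0032 and 0.058. With 5 genes at low levels, the difference between paralogues and main copies was not tested. RPL22L1 was the most abundant relative to its main copy, at 34.4%, 36.3% and 30.9% of RPL22 in control replicates 2, 3 and 4, and 33.4%, 33.9% and 31.4% in knockdown replicates 2, 3 and 4. RPL22 itself was a low-level member, at 269 ± 12.7 FPKM in controls and 244 ± 14.1 after knockdown, and RPL22L1 stood at 90.8 ± 3.19 and 80.3 ± 6.93 FPKM (SD, n = 3). Both had lower means after knockdown, and the log2 ratio differed between the groups by -0.039, less than the 0.12 spread (SD) between controls.

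RPS27L, a copy of RPS27, made up only 0.18% to 0.224% of RPS27 in the 6 libraries. RPS27 and RPS27L have the same coding length of 252 bases and share 77.8% of its bases. The log2 ratio differed by -0.048, within the spread of controls (SD 0.14). RPL39L, known from testis, made up 1.31% to 1.72% of RPL39. RPL39L and RPL39 share 94.8% of coding bases, the most of these pairs, and how well their reads were separated was not examined. RPL26L1, 84.1% identical to RPL26, made up 2.55% to 3.23% of it, and its fitted difference of -0.0032 (SE 0.13) had no stable direction across settings.

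RPL7L1, a relative of RPL7 in early large-subunit assembly, was the 1 member above 0. It stood at 91.0, 91.9 and 96.8 FPKM in controls and at 103, 91.9 and 96.7 FPKM after knockdown, so the groups overlapped and only knockdown replicate 2 lay above all controls. The log2 difference was 0.058 (SE 0.074; unadjusted p = 0.46, adjusted p = 0.9998, limma). As a share of RPL7 it was 3.30%, 3.53% and 3.34% in controls and 4.28%, 3.54% and 4.40% in knockdown replicates 2, 3 and 4. The groups did not overlap in this ratio, by 3.53% against 3.54% at the nearest, and the log2 ratio differed by 0.26, where the fitted differences were 0.058 for RPL7L1 and -0.20 for RPL7. RPL7L1 and RPL7 share 57.0% of aligned coding bases, the least of these pairs.

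**Figure D4:**
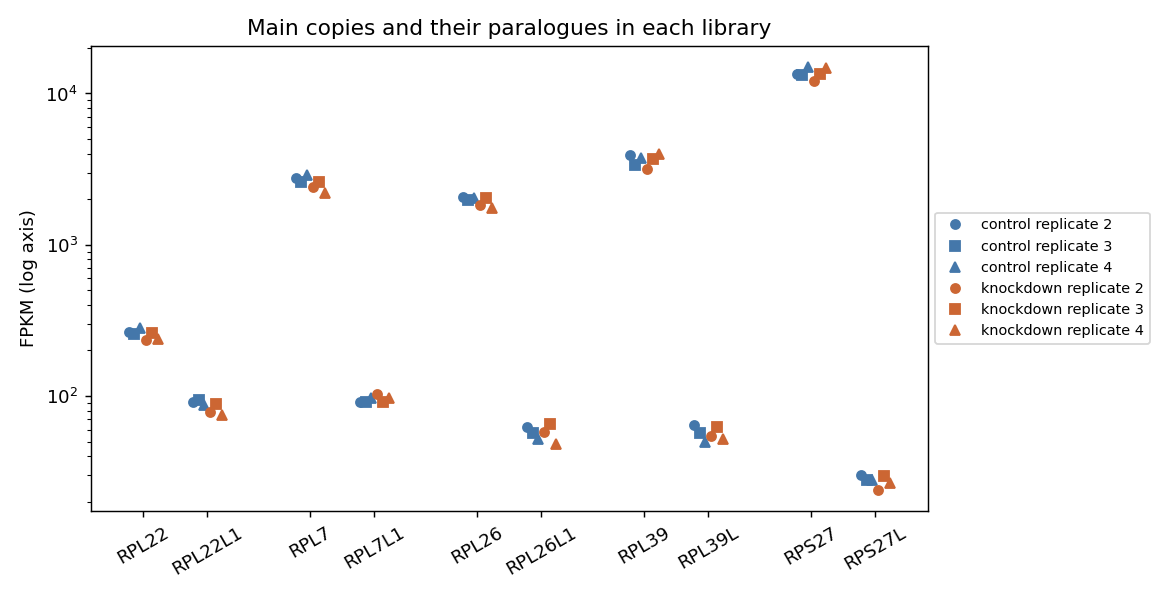
FPKM (log axis) of 5 main copies and their paralogues; each point is 1 library, blue for control and orange for knockdown, with the shape giving the replicate number. RPL22L1 lies closest to its main copy, at 30.9% to 36.3% of RPL22, and RPS27L farthest from it, at 0.18% to 0.224% of RPS27.

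Longer ribosomal protein genes had lower fitted values than shorter ones. Across the 77 main copies, coding length and the fitted difference correlated at a Spearman's rho of -0.58 (Pearson's r -0.64), while across all 11009 tested genes with a coding length rho was 0.18. Genes share libraries here and are not independent replicates. The 39 longer genes (456 to 1281 coding bases) had a median difference of -0.15 and 8 lower without overlap. The 38 shorter genes (75 to 453 coding bases) had -0.10 and 3, where 4.35% of all genes were lower without overlap. RPL4, the longest at 1281 bases, stood at 2826 ± 140 FPKM in controls and 2503 ± 196 after knockdown. RPL39, among the shortest at 153 bases, stood at 3672 ± 283 and 3595 ± 401 FPKM (SD, n = 3), and its groups overlapped.

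The relation differed between libraries. For values relative to the control mean, rho with coding length was -0.36, -0.10 and 0.33 in control replicates 2, 3 and 4, and -0.034, -0.51 and -0.44 in knockdown replicates 2, 3 and 4. The controls are measured against their own mean, which sets their values against one another, and the knockdown libraries are not. The spread of rho can thus not be compared between the groups. For the fitted difference the correlation stayed below 0 with any 1 library left out, from -0.63 without control replicate 2 to -0.31 without knockdown replicate 4. It was -0.15 without both libraries numbered 4, and -0.13 with limma's library weights. In knockdown replicate 2, the library with the lowest ribosomal protein values, the longer and shorter genes had medians of -0.22 and -0.21.

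Base composition also moved with single libraries, in either direction. Coding GC content, known for all 82 genes, correlated with values relative to the control mean at a rho of -0.00075, -0.27 and 0.20 in control replicates 2, 3 and 4, and of 0.025, -0.31 and 0.32 in knockdown replicates 2, 3 and 4. In knockdown replicate 4 the median was -0.077 for the 41 genes of higher GC (50.9% to 63.0%) and -0.16 for the 41 of lower GC (40.4% to 50.7%), against -0.21 for both sets in knockdown replicate 2. Coding GC and coding length were only weakly related across main copies (rho 0.11). The part of composition in the results was not tested.

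**Figure D5:**
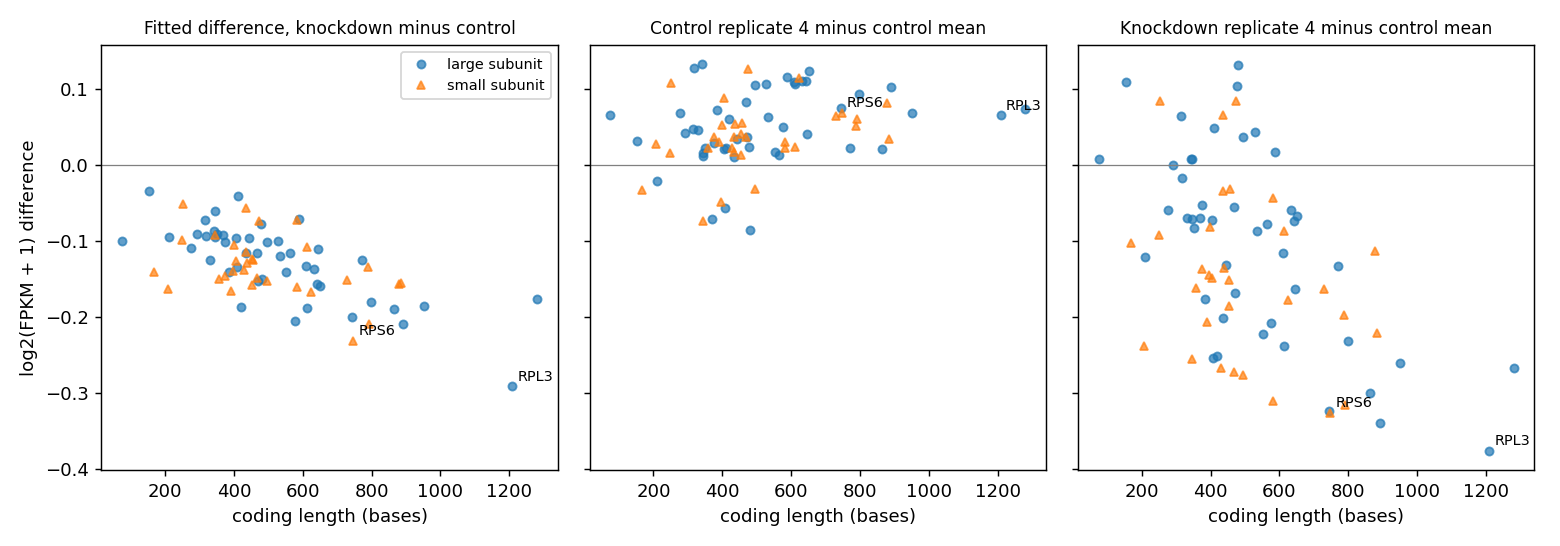
Coding length in bases against the fitted difference (left), the value in control replicate 4 (middle) and the value in knockdown replicate 4 (right), each in log2(FPKM + 1) units relative to the control mean or group; points are main copies, blue circles for the large and orange triangles for the small subunit. Values decline with length at the left and right (rho -0.58 and -0.44) and rise at the middle (rho 0.33).

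A list of 21 other genes with TOP mRNAs, mostly translation factors but also such genes as VIM, NPM1 and HNRNPA1, had lower means after knockdown. All 21 lay below 0 (53.3% of all genes), with a median of -0.16, and 0 were called. Lower without overlap were 7 of the 21 (4.35% of all genes). Their medians relative to the controls were -0.15, -0.064 and -0.29 in knockdown replicates 2, 3 and 4, and -0.023, -0.068 and 0.099 in the controls. The list was thus lowest in knockdown replicate 4 and the ribosomal proteins in replicate 2. Without both libraries numbered 4 its median difference was -0.057, and that of the ribosomal proteins -0.11. EIF3L, a subunit of initiation factor eIF3, averaged 249 ± 17.3 FPKM in controls and 194 ± 22.5 after knockdown (SD, n = 3; log2 difference -0.36, SE 0.11; unadjusted p = 0.010, adjusted p = 0.9998, limma). EIF3L lies on chromosome 22 like RPL3. EIF3F, another subunit, differed by -0.20 (SE 0.095).

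Genes that build ribosomes or control TOP mRNAs lay nearer 0. Of 58 ribosome assembly factors, 45 lay below 0 and 13 above, with a median of -0.039. Without overlap, 3 were lower (4.35% of all genes) and 2 higher (4.01%). PES1, a large-subunit assembly factor also on chromosome 22, averaged 69.1 ± 4.55 FPKM in controls and 58.9 ± 3.23 after knockdown (SD, n = 3; log2 difference -0.23, SE 0.081), and RSL24D1 differed by -0.14 (SE 0.063). In knockdown replicate 4 the median of this list was -0.24, and in knockdown replicates 2 and 3 it was 0.035 and 0.077. The RNA polymerase I machinery had 11 genes below 0 and 10 above (median -0.013), the mTOR and LARP1 list 13 below and 6 above (-0.023), and the dedicated chaperones of ribosomal proteins 5 below and 2 above (-0.019). None of their genes was called or without overlap.

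A lower median was not limited to ribosomal protein and TOP genes. The 9 neuroblastoma markers that passed the filter had a median of -0.13, the same as the ribosomal proteins, with 8 below 0. Of these markers 1 was lower without overlap (4.35% of all genes). This was CHGA, at 1707 ± 66.2 FPKM in controls and 1344 ± 113 after knockdown (SD, n = 3; log2 difference -0.35, SE 0.089; unadjusted p = 0.0059, adjusted p = 0.9998, limma). The medians of the 9 markers relative to the controls were -0.12, -0.026 and -0.24 in knockdown replicates 2, 3 and 4. Among them, MYCN averaged 2102 ± 91.3 FPKM in controls and 1903 ± 179 after knockdown, with overlapping groups (SD, n = 3; log2 difference -0.15, SE 0.095).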

How the data were processed

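Polyadenylated RNA of 3 control and 3 GOMAFU knockdown libraries was analysed from 1 table of FPKM values deposited by the authors. The tools listed are TopHat2 and Cuffdiff and the build is hg38, per the submitters' processing notes; their versions, the annotation and the strand setting are not given in these sources. Read depth is unknown, so its precision could be read only from the spread between replicates. A filter of at least 1 FPKM on the mean kept 12164 of 26372 genes. The test on log2(FPKM + 1) was limma 3.58.1 (R 4.3.3; lmFit, eBayes with a trend, two-sided, no covariate, all 6 libraries), which was tested on simulated data, with Benjamini-Hochberg adjustment over all kept genes and a threshold of 0.05. Fold changes on this scale understate low genes. Means and SDs are of FPKM.

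The genes and the 18 gene lists were chosen with earlier results of these data known. Of 261 list entries, 258 matched (not RACK1, present as GNB2L1, RPS17L or UTP4). The named genes are fixed members, those of smallest p, of highest and lowest level in each subunit, those farthest from the family's median, and the 2 genes of smallest p in each list. Positions and coding sequences came from GENCODE release 29, and start windows from RefSeq. Same-numbered libraries were not treated as pairs, since 1 of 3 same-number correlations of deviations was below 0.1 (0.092, 0.17 and 0.32). All 3 were above 0, so a pairing by number remains possible. Alternatives covered pseudocount, filter, scaling, variance model, library weights, replicate block and each library left out. Some listed genes and the results that need them are not reported here.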

Additional observations from a re-analysis of the deposited data

How the results depend on the processing

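No ribosomal protein gene was called under any of the settings run, and the family's median stayed below 0 in each. Under quantile normalization it was -0.026, beside -0.023 for all genes, so in that setting the family did not lie apart from other genes. The family's median was -0.072 with libraries rescaled to the same sum, and -0.17 to -0.088 with 1 library left out at a time. No scaling moved the median of all genes by over 0.1 (-0.023 to 0.040). Members lower without overlap numbered 4 under quantile normalization (5.56% of all genes), 18 with libraries rescaled over the other genes (3.58%), 21 without both libraries numbered 4 (19.4%), and 11 to 58 with 1 library left out (6.52% to 11.7%). With 1 library left out, the large-minus-small gap ran from -0.011 to 0.038. Genes called over the whole table numbered 9 higher and 13 lower with library weights, and 1 lower without both libraries numbered 4. MIAT passed the threshold in those 2 settings, at -1.58 (adjusted p = 0.0030, limma) and -1.54 (adjusted p = 0.012, limma). The weights favoured control replicate 3 (7.98) and knockdown replicate 2 (3.34) over the others (0.153 to 0.915). The causes of these shifts were not tested.

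The replicate block left 0 genes called in either direction and the median at -0.13. Control replicate 2 deviated most like knockdown replicate 3 (r = 0.32) and control replicate 3 most like knockdown replicate 2 (r = 0.21), while control replicate 4 deviated most like knockdown replicate 4 (r = 0.32). The replicates thus matched by number in 1 of 3 cases, and the block changed no call.

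Named genes near 0 changed sign in some settings. Under quantile normalization RPLP1 came to 0.032, RPLP2 to 0.071, RPS19 to 0.033, RPL26 to 0.0096, RPL26L1 to 0.0097, RPL39 to 0.062, RPL39L to 0.00224, RPL41 to 0.025, RPS2 to 0.028, FAU to 0.011 and the immune marker CD14 to -0.19. With libraries rescaled to the same sum RPS27 came to 0.00232, RPL26L1 to 0.050, RPL39 to 0.020 and RPL39L to 0.036, and rescaled over the other genes RPL26L1 to 0.016 and RPL39L to 0.00261. RPL26L1 was 0.00484 with median-of-ratios scaling, 0.031 with library weights and 0.048 without both libraries numbered 4. CD14 was -0.0021 with library weights, and -0.014 and -0.023 with pseudocounts of 0.1 and 0.01. With 1 library left out at a time, RPL26L1 ran from -0.11 to 0.11, RPL39 from -0.11 to 0.055, RPL39L from -0.11 to 0.070, RPS27 from -0.12 to 0.020, RPLP2 from -0.097 to 0.0070, RPS19 from -0.12 to 0.013, RPL21 from -0.29 to 0.0085, CD14 from -0.099 to 0.20, and the ribosomal protein chaperones TSR2 from -0.0061 to 0.074 and HEATR3 from -0.14 to 0.052. Of 569 values of 30 named members under alternatives, 538 kept direction and side of the threshold and 31 changed sign, in 11 genes. Of 396 values of 21 other named genes, 9 changed sign and 1 passed the threshold, that of CHGA with library weights (-0.40).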
